A study of Homo sapiens with 18 samples.

Results

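The guanylate-binding proteins are large GTPases, and GBP1 to GBP6, the genes described here, are the 6 members of the family that were chosen by name out of 19901 genes in the count table. They were chosen because the level of GBP1 was lower with hepatocyte growth factor (HGF) in each of 3 cell lines, so its response to HGF is given as a description without a test, and the question is whether its relatives followed. The remaining gene of the human family, GBP7, had 0 to 4 counts in a library and was not tested. All 6 members passed the filter on low counts, as did 15475 genes of the table.

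mRNA was sequenced from 18 libraries of head and neck squamous cell carcinoma lines, each line giving 3 libraries without treatment (control) and 3 after 50 ng/mL HGF. Detroit 562 came from a metastasis of a pharyngeal tumor, FaDu from a primary tumor of the hypopharynx and SCC-9 from a primary tumor of the tongue. Detroit 562 and FaDu shared a medium, while that of SCC-9 was a different one that contained hydrocortisone. HGF is the ligand of the receptor tyrosine kinase Met. The length of treatment before sequencing is 16 h in the records of the samples and in the published methods. The record of the series gives 48 h. Each tumor site is represented by a single established line, cultured without immune or stromal cells, so the libraries of a group are repeats of that line and the p values measure the spread between these libraries. The 6 squamous markers KRT5, KRT6A, KRT14, TP63, EPCAM and CDH1 were above 1 CPM (counts scaled to library size) in every group. Of 6 leukocyte markers only CD68 was above 1 CPM on average in any group, and of the fibroblast markers COL1A1 was above it in every group, COL1A2 in Detroit 562 and SCC-9 and DCN in SCC-9. Of 4 endothelial markers VWF was above it in untreated Detroit 562, and VWF and CDH5 were in both FaDu groups. Total counts were 35304770 to 44003970 per library, and CPM below are scaled by TMM, the trimmed mean of M values.

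Guanylate-binding proteins are among the genes that cells induce most strongly with interferon-gamma. The cytokine binds the receptor chains IFNGR1 and IFNGR2, the kinases JAK1 and JAK2 carry the signal on, and it ends at short elements in promoters, named the gamma-activated site (GAS) and the interferon-stimulated response element (ISRE), the latter bound by the induced factor IRF1. The proteins assemble on the membranes of intracellular bacteria and vacuoles, on lipopolysaccharide and on the actin cytoskeleton, and are best known from cell-autonomous defence and from inflamed endothelium and epithelium. GBP1, GBP2 and GBP5 end in a motif that receives a lipid anchor, which GBP3, GBP4 and GBP6 lack.

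The members lie in 1 cluster on chromosome 1. In the coordinates of the table (GRCh38) GBP3 spans chr1:89006666-89022894, GBP1 chr1:89052319-89065360, GBP2 chr1:89106132-89150456, GBP4 chr1:89181148-89198932 and GBP5 chr1:89258950-89272804, all on the minus strand. GBP6 spans chr1:89364058-89386461 on the plus strand. Reads were counted over whole gene extents, introns included. GBP2 shares 18706 bp of its extent with GBP7 on the same strand, and since a read there was counted for both, the 0 to 4 counts of GBP7 set the number of GBP2 reads that could lie in the shared stretch. Among the 8 genes and pseudogenes of the family compared, 7.69% of the 75-base words of GBP2 transcripts also occurred in another one, mostly GBP7. The share was 3.04% for GBP1, mostly with the pseudogene GBP1P1, 1.26% for GBP3 and 0 for GBP4, GBP5 and GBP6.

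RefSeq promoters (GRCh38.p14, 250 bases before to 50 after the start of each gene) were matched for 4 of the 6 members, GBP1, GBP3, GBP4 and GBP6. The ISRE was searched on both strands as GAAA, any pair of bases and GAAA, and 3.57% of 35116 promoters held it. GBP1, GBP3 and GBP4 held it on the opposite strand, where it reads as TTTC, a pair of bases and TTTC. It is shown here in capitals because it is the element through which interferon factors are known to act on this family, with 10 bases on either side, 5′ to 3′ on the strand of the gene, at chr1:89065316-89065345 for GBP1, chr1:89022845-89022874 for GBP3 and chr1:89198927-89198956 for GBP4.
GBP1: aacgaagtacTTTCAGTTTCatattactct
GBP3: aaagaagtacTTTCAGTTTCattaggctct
GBP4: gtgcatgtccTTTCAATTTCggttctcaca
The windows of GBP1 and GBP3 had the same base at 25 of 30 positions, and those of GBP1 and GBP4 at 16 of 30. The count table starts GBP1 and GBP3 upstream of RefSeq, so these windows lie inside the extents it gives. Counting the RefSeq start base as 0, the match lay at -127 to -118 in GBP1, at 2 to 11 in GBP3 and at -4 to 5 in GBP4.

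The 250 bases before the start of GBP6 held no ISRE match and are shown for contrast at chr1:89363809-89364058 on the plus strand, with a match to TGANTCA, the motif of AP-1 (the Jun and Fos factors), in capitals.
GBP6: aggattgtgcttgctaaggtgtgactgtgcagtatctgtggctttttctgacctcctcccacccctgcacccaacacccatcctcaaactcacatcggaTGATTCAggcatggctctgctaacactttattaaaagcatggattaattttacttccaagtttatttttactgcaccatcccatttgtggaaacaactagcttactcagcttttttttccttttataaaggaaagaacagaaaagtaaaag
AP-1 matches were also in GBP3, and 7.71% of all promoters held one. The GAS motif TTCNNNGAA was in GBP3, overlapping no other match, and in 7.66% of all promoters. A kappa B site was in GBP4 and in 5.91% of all promoters. A match is a string of letters in this window and was not tested for binding.

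GBP1 was lower with HGF in all 3 lines. This interferon-induced GTPase with a farnesyl anchor starts the assembly of the family on bacterial surfaces. In Detroit 562 the control libraries had 6.76, 5.62 and 5.25 CPM and the HGF libraries 2.52, 2.64 and 2.13 CPM. In FaDu the control libraries had 38.4, 26.3 and 26.4 CPM and the HGF libraries 19.5, 21.2 and 16.5 CPM. In SCC-9 the control libraries had 13.4, 14.9 and 16.4 CPM and the HGF libraries 8.96, 9.52 and 10.3 CPM. Every HGF library was below every control library of its line, which is the pattern for which GBP1 was chosen. The fitted log2 fold change was -1.27 ± 0.17 (SE, n = 3 against 3) for Detroit 562, -0.67 ± 0.15 for FaDu and -0.63 ± 0.15 for SCC-9.

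**Figure D1:**
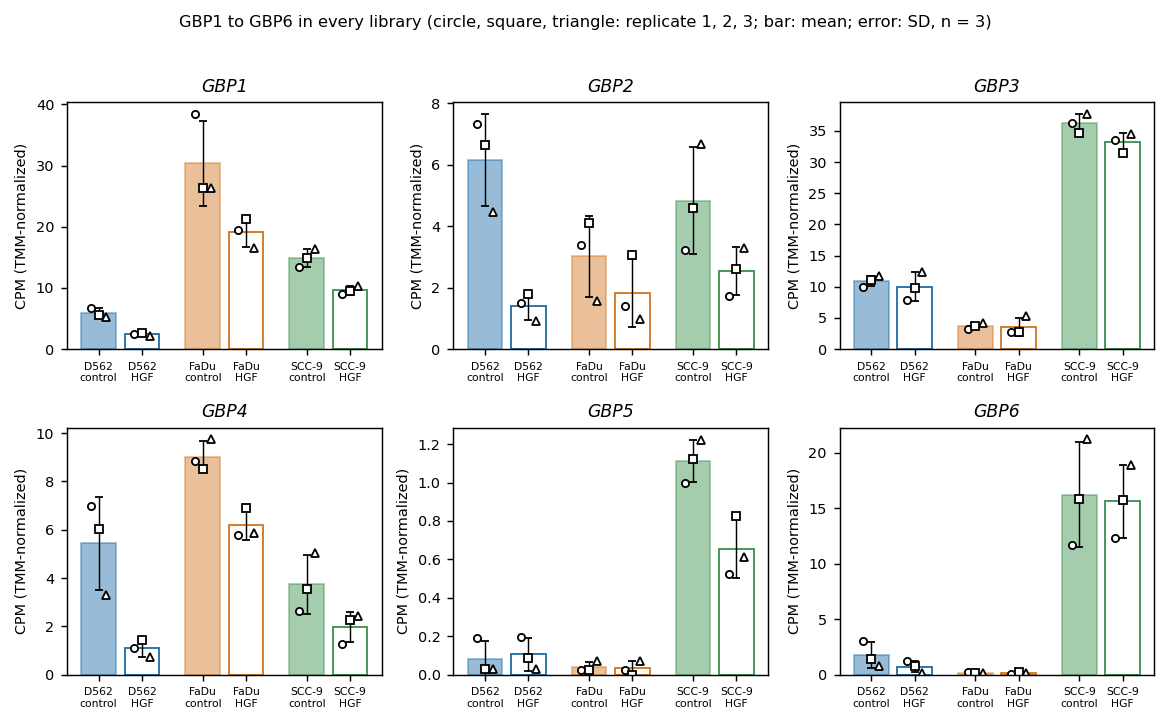
CPM of GBP1 to GBP6 (y axis, linear, from 0) in control and HGF libraries of Detroit 562 (D562), FaDu and SCC-9 (x axis), with 1 point for each library, bars for the mean and error bars for the SD (n = 3). GBP1 and GBP4 are lower in every HGF library than in every control library of the same line, GBP2 is so in Detroit 562 alone, and GBP3 is at a similar level with and without HGF.

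GBP2 and GBP4 fell with HGF in Detroit 562, and GBP6 fell there with wide scatter between libraries. GBP3 and GBP5 were not called in Detroit 562. Of the 5 relatives tested, 3 were called lower and 0 higher in this line, beside 11.7% of all genes called lower and 6.16% called higher (edgeR quasi-likelihood test, with calls at adjusted p values under 0.1 and log2 fold changes of 0.4 or more in size). In bulk libraries, fewer cells that express a gene and less RNA of it per cell cannot be told apart.

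GBP2, a GTPase that carries a geranylgeranyl anchor and is recruited to vacuoles and membranes with GBP1, had 7.33, 6.65 and 4.47 CPM in control and 1.51, 1.79 and 0.913 CPM in HGF-treated Detroit 562. The groups did not overlap. The log2 fold change was -2.12 ± 0.43 (adjusted p = 0.00354, edgeR quasi-likelihood), lower in 3 of 3 pairs of libraries with the same replicate number, and the gene was called in 6 of 6 fits that each left out 1 library.

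GBP4, which lacks a lipid anchor and is recruited to bacterial surfaces after GBP1, had 6.98, 6.03 and 3.29 CPM in control and 1.11, 1.42 and 0.73 CPM in HGF-treated Detroit 562. The groups did not overlap here either, and replicate 3 was the lowest library of both groups, as it was for GBP2. The log2 fold change was -2.31 ± 0.32 (adjusted p = 0.000401, edgeR), lower in 3 of 3 pairs, and the gene was called in 6 of 6 fits that left out a library.

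GBP6, a less studied member that is expressed in squamous epithelium, had 3.02, 1.44 and 0.727 CPM in control and 1.19, 0.738 and 0.183 CPM in HGF-treated Detroit 562. The groups overlapped, since the highest HGF library was above the lowest control library, but each HGF library was below the control library of its own number. The log2 fold change was -1.27 ± 0.49 (adjusted p = 0.0685, edgeR). The call was lost in 4 of 6 fits that left out a library, with -0.58 (adjusted p = 0.476) without control replicate 1, -1.39 (0.1) without control replicate 2, -1.28 (0.125) without HGF replicate 2 and -0.85 (0.231) without HGF replicate 3. These fits had no term for the replicate number. With such a term the log2 fold change of GBP6 was -1.30 ± 0.19 (adjusted p = 7.11e-05, edgeR), where 14.4% of all genes were called lower.

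GBP3, a partner of GBP1 without a lipid anchor, had 10.0, 11.1 and 11.7 CPM in control and 7.92, 9.82 and 12.4 CPM in HGF-treated Detroit 562, and the groups overlapped. Its log2 fold change was -0.13, with a 95% interval from -0.53 to 0.27. GBP5, known from assembly of the NLRP3 inflammasome, had 1 to 8 counts in each Detroit 562 library, too few for a fold change to be read in either direction (log2 0.35, 95% interval from -1.23 to 1.94).

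Summed levels of cell type markers differed between treatments in part. In Detroit 562 the squamous markers were 2890 to 4160 CPM in control and 1890 to 3020 CPM in HGF libraries, and these ranges overlapped. The fibroblast markers summed to 29.8 to 54.3 and 15 to 27.6 CPM, the leukocyte markers, of which CD68 alone was above 1 CPM, to 20.7 to 40.8 and 37.7 to 56.6 CPM, and the endothelial markers, at 1.21 to 2.99 CPM in control libraries, were lower in every HGF library, the lowest at 0.639 CPM. The leukocyte ranges overlapped in Detroit 562. They were higher with HGF without overlap in FaDu (18.1 to 28.8 and 30.1 to 37 CPM) and in SCC-9 (54.8 to 55.7 and 57.9 to 58.2 CPM). The squamous markers also overlapped in FaDu (5040 to 8000 and 3150 to 6810 CPM) and in SCC-9 (7100 to 8840 and 7180 to 8500 CPM). The fibroblast ranges overlapped in FaDu (4.01 to 6.79 and 3.41 to 4.73 CPM) and in SCC-9 (77.5 to 99.4 and 60.4 to 81.3 CPM). So did the endothelial ranges in FaDu (2.56 to 8.34 and 1.57 to 4.93 CPM) and in SCC-9 (1.02 to 1.66 and 0.908 to 1.2 CPM). The part of these markers in the changes of the GBP genes was not tested.

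In FaDu GBP2 and GBP4 were called only when the replicate number was taken into account, and the other relatives were not called. GBP4 had 8.83, 8.51 and 9.74 CPM in control and 5.8, 6.89 and 5.85 CPM in HGF-treated FaDu, with no overlap. GBP2 had 3.4, 4.09 and 1.55 CPM in control and 1.41, 3.07 and 0.968 CPM with HGF, and its groups overlapped because replicate 3 was low and replicate 2 high in both. Without a block 0 of 5 relatives were called by edgeR, 0 had an unadjusted p below 0.05 and DESeq2 called 0, while 0% of all genes were called lower (1247 genes had an unadjusted p below 0.05, and DESeq2 without its prior called 19 lower).

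Libraries of the same replicate number deviated together in each line, so the number was also fitted as a block, which compares each HGF library with the control library of its own number. With the block GBP2 (log2 fold change -0.76 ± 0.16, adjusted p = 0.00689, edgeR) and GBP4 (-0.55 ± 0.11, adjusted p = 0.00484) were called lower in FaDu, where 3.6% of all genes were called lower and 2% higher. Both genes were lower in 3 of 3 pairs. GBP3 stayed near 0 (-0.05, 95% interval from -0.33 to 0.23), with 3.18, 3.69 and 4.18 CPM in control and 2.76, 2.82 and 5.25 CPM with HGF. GBP5 with 0 to 3 counts and GBP6 with 3 to 8 counts in a library were too low in FaDu for a change to be detectable.

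In SCC-9 too, GBP2 and GBP4 were called only with the replicate block. GBP2 had 3.21, 4.59 and 6.68 CPM in control and 1.74, 2.6 and 3.29 CPM with HGF. GBP4 had 2.63, 3.54 and 5.05 CPM in control and 1.27, 2.24 and 2.43 CPM with HGF. The spread between replicate numbers was as wide as the difference between treatments, with replicate 1 lowest and replicate 3 highest in both groups. Without a block 0 of 5 relatives were called by edgeR, beside 0% of all genes called lower (641 genes had an unadjusted p below 0.05, and DESeq2 without its prior called 14 lower). GBP2 and GBP4 had an unadjusted p below 0.05, and DESeq2 called 0.

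With the block GBP2 (log2 fold change -0.91 ± 0.14, adjusted p = 0.00314, edgeR), GBP4 (-0.91 ± 0.14, adjusted p = 0.00314) and GBP5 (-0.77 ± 0.23, adjusted p = 0.0926) were called lower in SCC-9, where 1.41% of all genes were called lower and 0.562% higher. GBP5 had 1, 1.12 and 1.22 CPM in control and 0.526, 0.827 and 0.614 CPM with HGF, from 22 to 48 counts in a library, and the groups did not overlap. SCC-9 was the line in which GBP5 was high enough for such a reading.

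GBP3 and GBP6 were the most abundant members of SCC-9 per kb of exon and were not called there with or without the block. GBP6 had 11.7, 15.8 and 21.2 CPM in control and 12.3, 15.7 and 18.9 CPM with HGF. The libraries followed their replicate number and not the treatment, and the blocked log2 fold change was -0.04, with a 95% interval from -0.23 to 0.15. GBP3 had 36.2, 34.7 and 37.7 CPM in control and 33.6, 31.5 and 34.5 CPM with HGF, every HGF library being lower, but the size of the difference was small (blocked log2 fold change -0.13, 95% interval from -0.30 to 0.05).

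**Figure D2:**
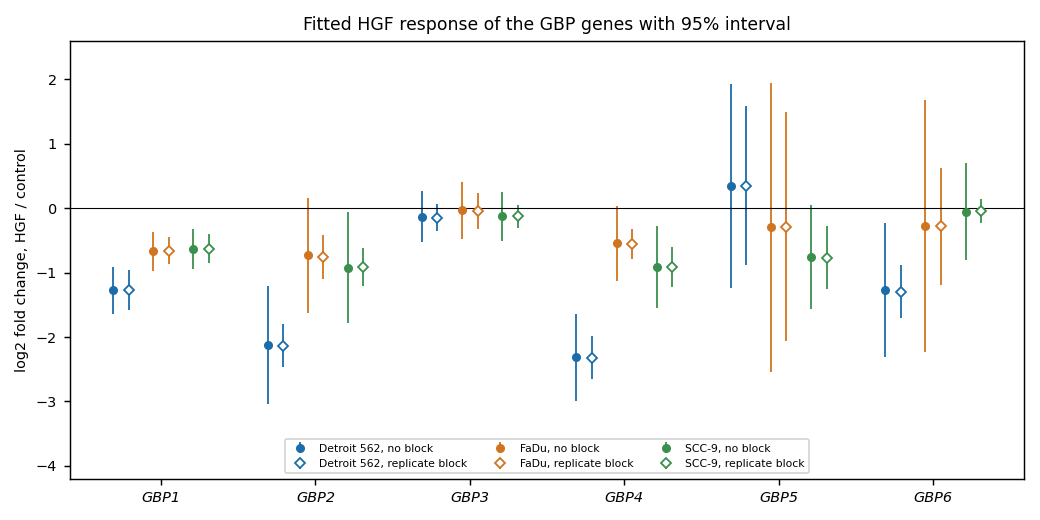
Fitted log2 fold change of HGF against control (y axis) of each member (x axis) in the 3 lines with its 95% interval, from the fit without a block (filled circles) and from the fit that blocks on the replicate number (open diamonds), 3 libraries against 3. The points hardly move between the fits while the intervals of GBP2, GBP4 and GBP6 narrow, and GBP3 lies near 0 in each line.

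Counted over lines, every HGF library was below every control library for GBP1 and GBP4 in all 3 lines, for GBP2 in Detroit 562 and for GBP3 and GBP5 in SCC-9. Such a separation was seen for 20.1% of all genes for Detroit 562, 5.36% for FaDu and 9.12% for SCC-9. GBP2 and GBP4 were lower in 3 of 3 pairs in each line, as was GBP1, which was chosen for its fall. The share of all genes lower in 3 of 3 pairs was not computed. Averaged over the 3 lines, which uses the same libraries again, the log2 fold change was -1.26 ± 0.24 for GBP2 (adjusted p = 0.00461, edgeR) and -1.26 ± 0.17 for GBP4 (adjusted p = 0.0011). These 2 of 5 relatives were called lower, beside 4.88% of all genes. With the block GBP6 was called as well (-0.54 ± 0.16, adjusted p = 0.0145), beside 6.23% of all genes. This average of GBP6 came mainly from Detroit 562, where its blocked log2 fold change was -1.30. GBP6 was not called in FaDu (-0.28, interval from -1.19 to 0.63), where its counts were too low for a change to be detectable. Nor was it called in SCC-9 (-0.04, interval from -0.23 to 0.15), so the average does not show a fall shared by the lines.

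Whether the response was called as larger in Detroit 562 than in FaDu and SCC-9 depended on the block. Without it, 0 of 5 relatives were called in any difference between lines by edgeR, beside 0.239% of all genes for Detroit 562 minus FaDu, 0.924% for Detroit 562 minus SCC-9 and 0% for FaDu minus SCC-9 (337 genes had an unadjusted p below 0.05, and DESeq2 without its prior called 3). An unadjusted p below 0.05 was reached by GBP2 and GBP4 in the first, by GBP4 in the second and by 0 in the third. DESeq2 called GBP4 in the first (-1.79, adjusted p = 0.00924, without its fold change prior) and in the second (-1.41, 0.0506), and edgeR called it in both without Detroit 562 control replicate 3 (-2.02, adjusted p = 0.0232, and -1.66, 0.035).

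With the block GBP2 and GBP4 fell further in Detroit 562 than in either other line. The difference in log2 fold change from FaDu was -1.38 ± 0.23 for GBP2 (adjusted p = 0.00211, edgeR) and -1.77 ± 0.20 for GBP4 (adjusted p = 0.000132), where 8.98% of all genes were called lower and 10.1% higher. The difference from SCC-9 was -1.23 ± 0.22 for GBP2 (adjusted p = 0.00157), -1.41 ± 0.22 for GBP4 (adjusted p = 0.00069) and -1.26 ± 0.21 for GBP6 (adjusted p = 0.00117), where 13.2% of all genes were called lower and 13.8% higher. Between FaDu and SCC-9 the blocked fit called 0 of 5 relatives, beside 1.32% of all genes in either direction, and the interval of the difference was -0.31 to 0.61 for GBP2 and -0.02 to 0.75 for GBP4. GBP1, as a description, differed by -0.62 between Detroit 562 and FaDu and by -0.64 between Detroit 562 and SCC-9 in that fit. In each difference that involves SCC-9, the line and its medium with hydrocortisone cannot be told apart.

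The untreated lines differed in which members they expressed. SCC-9 was grown in another medium than Detroit 562 and FaDu, with hydrocortisone added, so in each comparison with SCC-9 the line and the medium cannot be told apart. On the scale of CPM per kb of exon, Detroit 562 had most GBP3 (2.55 ± 0.20, SD, n = 3), then GBP1 (0.963 ± 0.13), GBP4 (0.885 ± 0.31), GBP2 (0.851 ± 0.21) and GBP6 (0.369 ± 0.25), with GBP5 at 0.00739 ± 0.0085. The ranges of GBP1, GBP4 and GBP2 overlapped, and that of GBP6 reached into those of GBP4 and GBP2. FaDu had most GBP1 (4.98 ± 1.1), then GBP4 (1.47 ± 0.10), GBP3 (0.86 ± 0.12), GBP2 (0.417 ± 0.18), GBP6 (0.0377 ± 0.0028) and GBP5 (0.00363 ± 0.0024), with no overlap between neighbours in this order. SCC-9 had most GBP3 (8.45 ± 0.35), then GBP6 (3.46 ± 1.0), GBP1 (2.44 ± 0.25), GBP2 (0.668 ± 0.24), GBP4 (0.609 ± 0.20) and GBP5 (0.102 ± 0.010), and here GBP6 overlapped GBP1 and GBP2 overlapped GBP4. Per kb of gene extent in place of exon, GBP1 came before GBP6 and GBP4 before GBP2 in SCC-9.

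**Figure D3:**
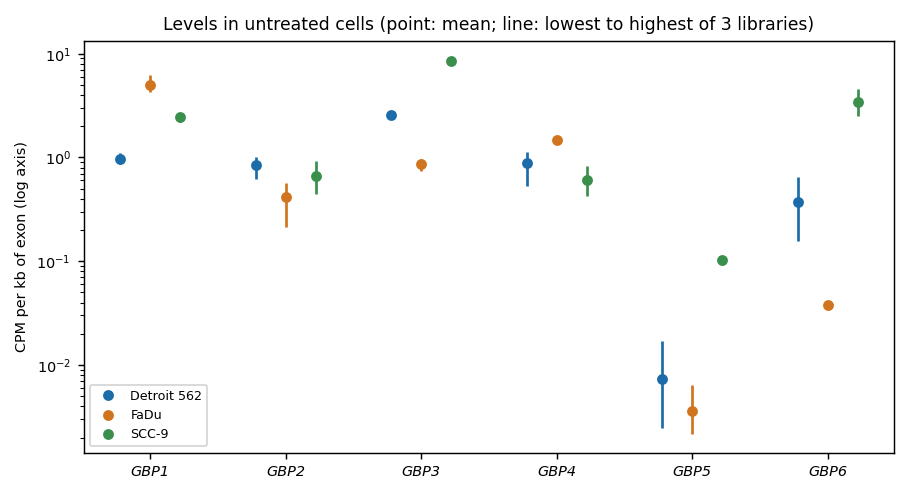
Level per kb of exon (y axis, log scale, in CPM per kb) of each member (x axis) in untreated cells of the 3 lines, with a point for the mean and a line from the lowest to the highest of 3 libraries. GBP6 has the widest gap between lines, from 0.0377 in FaDu to 3.46 in SCC-9, and GBP2 the narrowest, from 0.417 to 0.851.

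Between untreated lines 5 of 6 members were called in each comparison. Most genes differed between the lines, with 61% of all genes called between Detroit 562 and FaDu, 65.4% between Detroit 562 and SCC-9 and 64.2% between FaDu and SCC-9. GBP1 was highest in FaDu, with a log2 difference of -2.37 ± 0.16 for Detroit 562 against FaDu (adjusted p = 5.85e-10, edgeR) and of 1.03 ± 0.15 for FaDu against SCC-9 (adjusted p = 7.39e-06). GBP3 was highest in SCC-9, with -3.30 ± 0.20 for FaDu against SCC-9 (adjusted p = 2.19e-10) and -1.72 ± 0.19 for Detroit 562 against SCC-9 (adjusted p = 2.53e-07). GBP6 was highest in SCC-9 as well, with -6.50 ± 0.55 for FaDu against SCC-9 (adjusted p = 1.24e-08) and 3.29 ± 0.61 for Detroit 562 against FaDu (adjusted p = 0.000133). GBP5 was higher in SCC-9 than in Detroit 562 (-3.66 ± 0.52, adjusted p = 6.89e-06) and FaDu (-4.69 ± 0.59, adjusted p = 1.58e-06), and was not called between the latter (adjusted p = 0.307).

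The levels of GBP2 and GBP4 lay closer together. GBP4 was higher in FaDu than in SCC-9 (1.27 ± 0.28, adjusted p = 0.000581, edgeR) and than in Detroit 562 (-0.73 ± 0.27 for Detroit 562 against FaDu, adjusted p = 0.0247), the latter lost without Detroit 562 control replicate 3 (-0.47, adjusted p = 0.12). Its difference between Detroit 562 and SCC-9 (0.54 ± 0.28, adjusted p = 0.0909) was lost without Detroit 562 control replicate 1 (0.32, 0.36) or 2 (0.46, 0.207), without SCC-9 control replicate 1 (0.35, 0.31) or 2 (0.51, 0.177) and with upper-quartile factors (0.51, 0.113). GBP2 was higher in Detroit 562 than in FaDu (1.03 ± 0.40, adjusted p = 0.029), which was lost without FaDu control replicate 3 (0.72, 0.125). GBP2 was not called between Detroit 562 and SCC-9 (0.35, 95% interval from -0.47 to 1.18) or between FaDu and SCC-9 (-0.68, 95% interval from -1.53 to 0.17), but was called in the latter without FaDu control replicate 2 (-0.96, adjusted p = 0.07), without SCC-9 control replicate 1 (-0.90, 0.0732) and with a replicate block shared by the 3 lines, chosen after the data were seen (-0.74, 0.0874).

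Of 8 neighbours tested (PKN2, GTF2B, KYAT3, RBMXL1, LRRC8B, LRRC8C, LRRC8D and ZNF326), 1 was called higher and 1 lower in Detroit 562, beside 6.16% of all genes called higher and 11.7% called lower. LRRC8C, a subunit of volume-regulated anion channels, rose by 0.87 ± 0.26 (adjusted p = 0.0217, edgeR), and with the block in FaDu by 0.53 (adjusted p = 0.000286), and its paralog LRRC8D fell by 0.41 ± 0.09 on the log2 scale (adjusted p = 0.0047). Both overlap the readthrough gene RP11-302M6.4 on their strand and KYAT3 overlaps RBMXL1, so their counts are shared in part. In Detroit 562 the neighbours had a median log2 fold change of 0.01, beside -0.01 over all genes tested, and their medians in FaDu and SCC-9 were 0.03 and 0.01.

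**Figure D4:**
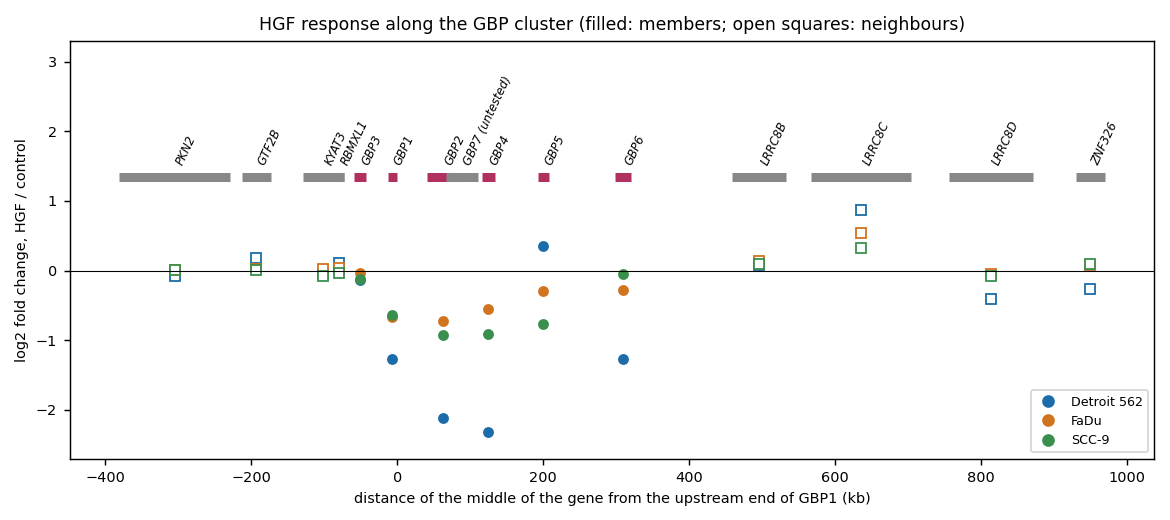
Log2 fold change of HGF against control without a block (y axis) of members (filled circles) and neighbours (open squares) in the 3 lines, placed by the distance of the middle of the gene from the upstream end of GBP1 in kb (x axis), with the extents of the genes as bars above (GBP7 was not tested). GBP1, GBP2 and GBP4, next to each other apart from GBP7, are lower with HGF in each line, while GBP3 on their left is near 0.

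The interferon pathway, known to induce the family, was read from lists of its genes. Its part in the changes of the GBP genes was not tested. The counts of called genes in these lists stand against 11.7% of all genes called lower and 6.16% called higher in Detroit 562, or 14.4% and 7.13% with the replicate block. Few reads came from the ligands. IFNG and IFNB1 had 0 or 1 count in every library, and of 8 ligand genes only IFNE, an epithelial type I interferon, passed the filter and was not called (log2 fold change -0.46 for Detroit 562, 0.66 for FaDu and -0.02 for SCC-9). Of 12 genes for receptors, kinases and STAT factors, 2 were called lower and 0 higher in Detroit 562, and their median change was -0.16 on the log2 scale, beside -0.01 over all genes tested. IFNGR1, the ligand-binding chain of the interferon-gamma receptor, fell by 0.47 ± 0.13 on the log2 scale (adjusted p = 0.0163, edgeR) and STAT2 fell by 0.54 ± 0.11 (adjusted p = 0.00345). JAK1 (-0.15), JAK2 (-0.26), IRF9 (-0.41) and IFNGR2 (0.32) were not called. With the block IRF9, a partner of STAT2, was called as well (-0.41, adjusted p = 0.00283), which made 3 of 12 lower.

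Among IRF factors and transactivators, 2 of 7 were called lower and 1 higher in Detroit 562 (median -0.20). IRF1, the ISRE-binding factor best known for inducing guanylate-binding proteins, had 1729 to 2909 counts in control and 724 to 1343 in HGF libraries (log2 fold change -1.0 ± 0.15, adjusted p = 0.000653, edgeR). CIITA, the transactivator of class II antigen presentation, changed by -1.82 ± 0.38 (adjusted p = 0.00372) and BATF2 rose by 0.72 ± 0.22 (adjusted p = 0.0255). IRF2 (-0.31) and NLRC5 (0.11), the transactivator of class I genes, were not called. In FaDu and SCC-9 IRF1 had log2 fold changes of -0.19 and -0.34 and was not called.

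Of 17 other genes known to be induced by interferon-gamma, 6 were called lower and 1 higher in Detroit 562 (7 and 1 with the block), beside the 11.7% and 6.16% of all genes, with a median of -0.37 beside -0.01 over all genes tested. IDO1, which degrades tryptophan, changed by -2.28 ± 0.54 (adjusted p = 0.00708, edgeR), from 12 to 41 counts in control to 1 to 9 with HGF. PSMB9, an immunoproteasome subunit, changed by -1.02 ± 0.22 (adjusted p = 0.00443) and UBE2L6, the conjugating enzyme for ISG15, by -1.02 ± 0.25 (adjusted p = 0.00856). CD274, which encodes the checkpoint ligand PD-L1, rose by 1.38 ± 0.40 (adjusted p = 0.0196). Without the block edgeR called 0 of these genes in FaDu, where 7 had an unadjusted p below 0.05 and DESeq2 called 0, and 0 in SCC-9, where 6 had an unadjusted p below 0.05 and DESeq2 called 2. With it, 4 were called lower and 1 higher in FaDu, beside 3.6% and 2% of all genes, and 5 lower and 1 higher in SCC-9, beside 1.41% and 0.562%, with IDO1 at -1.09 (adjusted p = 0.00337), PSMB9 at -0.52 (0.00681), UBE2L6 at -0.48 (0.00917) and CD274 at 0.50 (0.0929) in SCC-9.

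The called genes among inhibitors and NF-kB factors were higher with HGF in Detroit 562 and FaDu, and 0 were called in SCC-9. SOCS3, a feedback inhibitor of JAK kinases, was the 1 of 8 inhibitors called in Detroit 562 (median 0.17) and rose by 0.81 ± 0.27 (adjusted p = 0.0354, edgeR). With the block 2 of 8 were called higher in Detroit 562, SOCS1 (0.73, adjusted p = 0.092, named after its value was seen) being the other, and SOCS3 was called in FaDu (0.47, adjusted p = 0.00138). Of 7 NF-kB factors and regulators 2 were called higher (median 0.13), the feedback inhibitor TNFAIP3 (1.38 ± 0.36, adjusted p = 0.0127) and the subunit RELB (0.59 ± 0.24, adjusted p = 0.0844). TNFAIP3 was also called higher in FaDu with the block (0.62, adjusted p = 0.00336), where 2% of all genes were called higher. In SCC-9 0 genes of these lists were called with or without the block. The medians there, without the block, were -0.0475 for the inhibitors and -0.135 for the NF-kB factors.

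Genes whose products work with guanylate-binding proteins were read in the same way. Of 12 genes of inflammasomes and cell-autonomous defence 2 were called lower (median -0.13), APOL3 (-1.90 ± 0.32, adjusted p = 0.00129, edgeR), whose product acts on bacterial membranes after GBP1, and CASP1 (-0.66 ± 0.25, adjusted p = 0.0605), the protease of inflammasomes. CASP4 (0.23), the lipopolysaccharide sensor that GBP1 recruits, and GSDMD (-0.21), the pore protein it cleaves, were not called, and AIM2 had 0 to 2 counts in a Detroit 562 library. In this list DESeq2 called 4 genes, and with the block edgeR called 3 lower and 1 higher in Detroit 562, adding RNF213 (-0.48, adjusted p = 0.00746) and NLRP1 (1.24, adjusted p = 0.0737), both named after their values were seen. For FaDu the block called CASP1 lower (-0.56, adjusted p = 0.000176). For SCC-9 it called APOL3 lower (-1.05, adjusted p = 0.00163) and NLRP3, named after its value was seen, higher (0.77, adjusted p = 0.00531). Of 8 genes for prenylation and for control of GBP1 edgeR and DESeq2 called 0 (median 0.15) and 3 had an unadjusted p below 0.05, with the kinase PIM1 at 0.20 and the 14-3-3 protein SFN at 0.22. Of 14 other dynamin-superfamily GTPases 3 were called lower (median -0.02), the antiviral MX1 (-1.06 ± 0.39, adjusted p = 0.0588) and MX2 (-1.91 ± 0.73, adjusted p = 0.0642) and the atlastin ATL1 (-1.25 ± 0.22, adjusted p = 0.00195), while ATL3 was at 0.03. With the block 4 were called, DNM1 (-0.75, adjusted p = 0.0023, named after its value was seen) being added, and MX2 was called in FaDu (-0.56, adjusted p = 0.0547). The blocked fit of Detroit 562 called GBP2, GBP4 and GBP6, as did the fit without it.

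**Figure D5:**
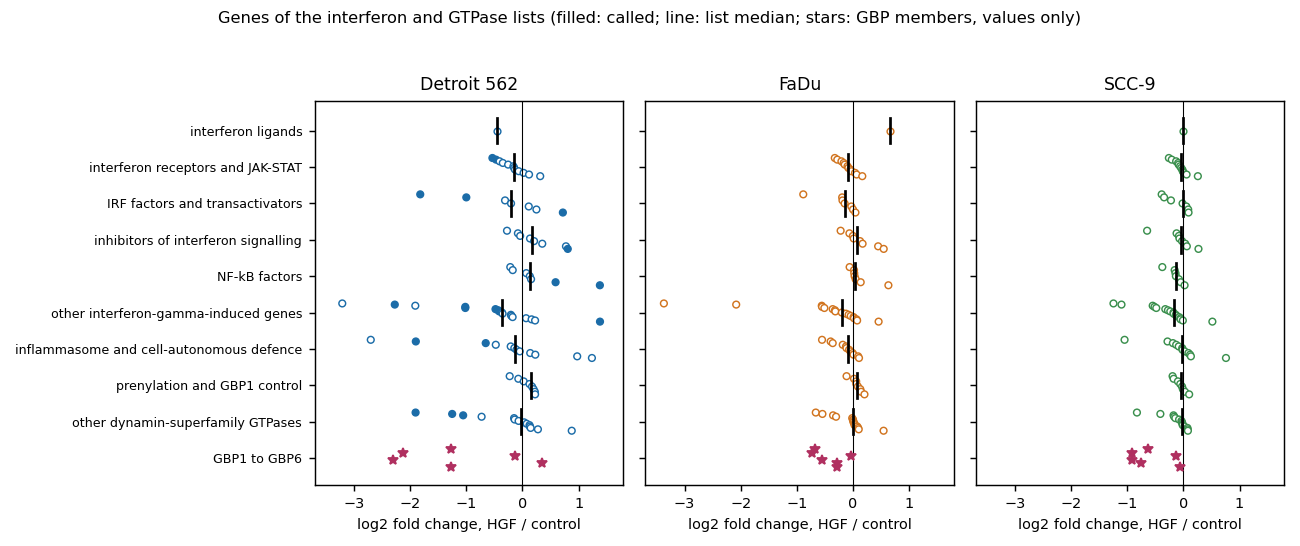
Log2 fold change of HGF against control without a block (x axis) in each line (panels) for genes of the interferon and GTPase lists (y axis), with 1 point for each gene tested, filled where called, a line at the median of the list, and stars for GBP1 to GBP6 as values without a call. Points of the interferon-gamma-induced list reach furthest to the left, and the filled points are in Detroit 562.

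Likeness to GBP1 was measured as the root mean square difference of log2 CPM over the 18 libraries after taking out the mean of each line. Among the nearest of 15474 genes were RALGPS1 (0.182), EPB41L1 (0.187), ABHD4 (0.191) and ST6GALNAC2 (0.199), against a median of 0.504 over all genes. GBP4 was in place 2388 (0.407) and GBP2 in place 5270 (0.467). GBP3 (0.516), GBP6 (0.558) and GBP5 (0.688) were above the median of all genes. The measure uses the libraries by which GBP1 was chosen and is a description. It depends on the direction and size of a change and on the scatter between single libraries. A gene that fell further than GBP1, or that varied otherwise between replicates, is placed further from it. In Detroit 562 the log2 fold change was -2.12 ± 0.43 for GBP2 and -2.31 ± 0.32 for GBP4, beside -1.27 ± 0.17 for GBP1. GBP2 fell less there than GBP4 and was still placed further from GBP1, so the size of this fall alone does not order them.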

How the data were processed

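The authors trimmed the reads of stranded mRNA libraries with cutadapt 1.16, aligned them with STAR 2.5.2b to GRCh38.p12 with GENCODE 28 and counted reads per gene with bedtools (versions per the submitters' processing notes where given). The deposited values are raw counts per gene, without normalization, and were used as deposited. In R 4.3.3, edgeR 4.0.16 was used with filterByExpr on the 6 groups, TMM factors and a quasi-likelihood fit with 1 mean per group over all 18 libraries, and p values were adjusted by Benjamini-Hochberg over 15475 genes. Calls needed an adjusted p under 0.1 and a log2 fold change of 0.4 or more in size, differences between lines by the adjusted p alone. The fit was tested on simulated counts. Log2 fold changes are given ± SE, and levels as mean ± SD.

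The members and gene lists were chosen with earlier results of these data known. Named were the members, the neighbours, 18 genes of the pathway chosen by role, up to 4 other called genes of each list with the largest change in Detroit 562, and the 5 genes most like GBP1. Of the genes named by this rule, 2 are not reported here. Of the neighbours, KYAT3 was matched by its identifier.

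Replicate numbers come from the sample titles. Control and HGF libraries of the same number correlated in their deviations from the group means across genes (the lowest of 3 correlations was 0.161 for Detroit 562, 0.376 for FaDu and 0.203 for SCC-9). Different numbers gave means of -0.144, -0.227 and -0.136. Deviations cancel out within a group, so these means largely follow from the former and are no separate evidence. The numbers were taken to pair the libraries, and a fit with the number as a block within each line is given where it changed a call of a member or a count of a list. Alternatives were other size factors and filters, DESeq2 1.42.0 with and without its fold change prior, other thresholds, a fit of 1 line alone and each library left out in turn. Promoters are RefSeq sequences of GRCh38.p14.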

Additional observations from a re-analysis of the deposited data

Results flagged for a closer look

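In the fit with the replicate block the response to HGF differed between lines for 3 relatives of GBP1. In that fit 19.1% of all genes were called in either direction for Detroit 562 minus FaDu and 26.9% for Detroit 562 minus SCC-9. The log2 fold change in Detroit 562 minus that in FaDu was -1.38 for GBP2 and -1.77 for GBP4. The log2 fold change in Detroit 562 minus that in SCC-9 was -1.23 for GBP2, -1.41 for GBP4 and -1.26 for GBP6. The same differences were not called by edgeR without the block.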

How the results depend on the processing

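The number of relatives called, 0 without the replicate block for FaDu, SCC-9, Detroit 562 minus FaDu and Detroit 562 minus SCC-9, was 2, 3, 2 and 3 with it, beside 5.6%, 1.97%, 19.1% and 26.9% of all genes called in either direction. For Detroit 562 minus FaDu and for Detroit 562 minus SCC-9 it was 1 with DESeq2 with or without its fold change prior, and between 0 and 1 when a library was left out. The counts for Detroit 562, for the average over lines and for untreated lines stayed within 1.5 times of the reported ones under every alternative run. This limit allows the loss of GBP6 in Detroit 562, called in 2 of 6 fits that left out a library. It also allows the gain of GBP6 in the average with the block, and changes in the calls of GBP2 and GBP4 between untreated lines. A block within each line takes up the difference between lines, so for untreated lines it was not run and a block shared by the 3 lines, chosen after the data were seen, was used in its place, with 5, 5 and 6 members called.

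In single lines, in the average over lines and between untreated lines, directions turned only when a library was left out, and only for members that were not called in that comparison. The log2 fold change with HGF then ranged from -0.31 to 0.015 for GBP3 in Detroit 562 and from -0.39 to 0.13 in FaDu, from -0.52 to 1.90 for GBP5 in Detroit 562, from -1.50 to 0.36 in FaDu and from -0.64 to 0.28 averaged over lines, and from -0.56 to 0.065 for GBP6 in FaDu and from -0.24 to 0.18 in SCC-9. That of GBP5 between untreated Detroit 562 and FaDu ranged from -0.52 to 1.68. Differences between lines in the response that were not called and lay near 0 also turned, among them that of GBP3 for Detroit 562 minus SCC-9 (-0.0064), which was 0.0016 with no filter on low counts. GBP6 in Detroit 562 was also not called in a fit of that line alone (adjusted p = 0.191). Depth limits GBP5 in Detroit 562 and FaDu and GBP6 in FaDu, where a library held at most 8 counts.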
